A study of Mus musculus with 12 samples.

Results

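The collagen genes of the mouse encode the chains of the most abundant matrix proteins of connective tissue. They were taken here as every row of the count table whose symbol has the form Col, a number, a and a number, which gave 44 of the 24421 rows. They were placed by their textbook types into 8 fibrillar, 9 basement membrane, 7 cartilage and 20 other genes. Of the 44, 43 passed the filter on low counts and were tested. Col28a1, a chain described in peripheral nerve, had 8 counts in the compression libraries, 11 in controls and 10 at Day 0 and was not tested. Col5a3, Col8a1 and Col10a1 did not pass the filter in all 4 Day 0 libraries and were kept through their Day 2 counts, so that a difference from Day 0 was favoured for them by the filter.

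The explants were whole lungs from CD-1 wild type mice, dissected at embryonic day 12.5 and kept in Matrigel, a gel of basement membrane proteins, at an air-liquid interface, and the day after was called Day 0. RNA was sequenced in bulk from 4 libraries each of 3 groups. In the Day 2 compression group, PEG-HCC, a gel polymer, was mixed in at 20% on Day 0 and turned by a two-photon laser into a stiff, crosslinked wall around the lung, which restricted its growth for 2 days. In the Day 2 control group the same amount of polymer was added and left uncrosslinked. The third group was collected at Day 0, and the labels record no polymer for it. Compression and control differ in crosslinking as well as in restriction, and control and Day 0 in polymer as well as in time, and these cannot be told apart here. The explants have no blood flow, and whether a group's libraries stem from different animals is not stated, so the p-values measure the spread between these samples, which may be technical.

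Collagens share a helix wound from several chains, built from repeats with glycine at every turn. Fibrillar types (I, III and V among them) assemble into the banded fibrils that carry tension, and in the lung they are made mainly by mesenchymal cells. Type IV forms the sheet-like network of basement membranes under epithelium and endothelium from paired chains whose genes lie head to head, and types II, IX, X and XI belong to cartilage, which in the lung is that of the trachea and large bronchi. The remaining types decorate fibrils (the FACIT collagens), form beaded filaments (type VI), span the cell membrane or build short-chain networks.

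Sequences before the start sites are shown first for the genes that the comparisons turn on. Both pairs of type IV chains that rose most over the 2 days of culture are transcribed in opposite directions from neighbouring starts, 71 bases apart for Col4a4 and Col4a3 and 1308 bases apart for Col4a6 and Col4a5, whereas the starts of Col4a1 and Col4a2 overlap by 22 bases. The stretch between the starts of Col4a4 and Col4a3 (chr1:82586850-82586920) is given on the strand of Col4a4, and 250 bases before the start of Col4a6 (chrX:141474077-141474326, minus strand) stand for the other pair. The 250 bases before Col23a1 (chr11:51289670-51289919, plus strand) and before 1 annotated start of Col9a1 (chr1:24177360-24177609, plus strand) are those of the transmembrane and the cartilage collagen with the lowest p between compression and control in their classes. All are from RefSeq on GRCm38.p6, run 5′ to 3′, and are in lower case, with capitals for a GC box. The motifs searched on both strands were the GC box GGGCGG and the box CCAAT. Windows were on hand for 35 of the 44 genes.
Col4a4 to Col4a3: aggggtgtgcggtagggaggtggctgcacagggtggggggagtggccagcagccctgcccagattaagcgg
Col4a6: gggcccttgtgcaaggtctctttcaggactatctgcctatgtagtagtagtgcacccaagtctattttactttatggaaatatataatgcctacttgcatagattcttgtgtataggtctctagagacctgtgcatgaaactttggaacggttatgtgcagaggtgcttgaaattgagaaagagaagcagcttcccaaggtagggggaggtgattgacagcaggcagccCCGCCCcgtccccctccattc
Col23a1: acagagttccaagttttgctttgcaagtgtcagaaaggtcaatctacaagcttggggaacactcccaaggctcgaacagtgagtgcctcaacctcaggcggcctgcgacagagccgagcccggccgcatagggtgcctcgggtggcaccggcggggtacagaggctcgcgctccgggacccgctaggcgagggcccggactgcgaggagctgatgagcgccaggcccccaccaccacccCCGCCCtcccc
Col9a1: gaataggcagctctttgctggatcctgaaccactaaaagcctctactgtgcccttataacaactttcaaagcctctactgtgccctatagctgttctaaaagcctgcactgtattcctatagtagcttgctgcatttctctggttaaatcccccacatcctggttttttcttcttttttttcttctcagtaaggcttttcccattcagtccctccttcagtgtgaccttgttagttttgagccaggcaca
The windows of Col4a6 and Col23a1 each held 1 GC box and no CCAAT box. Those of Col4a4 to Col4a3 and of Col9a1 held neither. Among 32851 windows of 250 bases before annotated starts, 32.7% held a GC box and 33.8% a CCAAT box on either strand. The stretch between Col4a4 and Col4a3 is shorter than these windows, and no match says only that these letters are not in it.

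Total counts were 25680019 to 31739019 per library under compression, 15452117 to 30805341 in controls and 13979871 to 33249761 at Day 0. Levels are given as CPM, counts per 1000000 of a library's total after TMM scaling, as mean ± SD (n = 4 per group). Lung markers were present in every library: the summed level of 5 markers of lung epithelium was 1736 to 2298 CPM under compression, 1569 to 1738 CPM in controls and 737 to 895 CPM at Day 0, and that of 5 markers of lung mesenchyme was 863 to 933, 783 to 948 and 1122 to 1246 CPM in the same groups. Of the epithelial markers, Sftpc alone averaged 1017 ± 255 CPM under compression, 574 ± 136 CPM in controls and 72.9 ± 23.0 CPM at Day 0. Nkx2-1, Epcam, Cdh1 and Sox9 averaged 236, 307, 431 and 107 CPM under compression and 241, 303, 431 and 93.4 CPM in controls. Control replicate 4 also held liver transcripts (5 markers summed to 1465 CPM, against at most 16.9 CPM in any other library) and the muscle gene Myog at 4.79 CPM. Compression replicates 2 and 3, whose descriptions share the number 13, were closer to each other than any other pair of 1 group (mean chi-square per gene 4.09, against at least 7.51). Their descriptions end in A and B, and they may come from 1 animal or litter, which the labels do not say. They differ by more than counting noise, which preparations from 1 animal would also do. They were counted as 2 samples, with their sum as an alternative, and n = 4 for compression rests on that.

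Collagen counts made up 1.35% ± 0.062 of all counts under compression, 1.26% ± 0.129 in controls and 1.19% ± 0.133 at Day 0. In replicates 1 to 4 their summed level was 12474, 13838, 13126 and 14504 CPM under compression. It was 11151, 11758, 13813 and 13451 CPM in controls and 10625, 11351, 12823 and 13040 CPM at Day 0. In controls and at Day 0, replicates 1 and 2 thus lay below replicates 3 and 4, and the source of this split was not tested. Per kilobase of the principal transcript, the type III gene Col3a1, which makes fine fibrils of stretchable organs, was the most abundant collagen in every group. It stood at 648 ± 66.9 under compression, 592 ± 80.1 in controls and 528 ± 36.8 at Day 0 CPM per kb. The type I genes Col1a1 and Col1a2 held the next 2 places and the type VI genes Col6a1 and Col6a2 the 2 after them, in orders that changed between groups. Col1a2 stood at 234 ± 15.4 under compression, 209 ± 21.4 in controls and 245 ± 15.8 at Day 0 CPM per kb. These values lay within the spread of Col1a1, at 228 ± 37.2 under compression, 215 ± 31.5 in controls and 221 ± 34.7 at Day 0 CPM per kb. At the other end, Col6a5, Col19a1 and Col5a3 held places 39 to 43 of the 44 in every group, and Col28a1 was last under compression and in controls. Set against Day 0, 4 genes stood 6 or more places higher in at least 1 Day 2 group: Col4a5 (place 13 under compression, 13 in controls and 19 at Day 0), Col4a6 (19, 17 and 23), Col6a6 (26, 24 and 30) and Col8a1 (36, 35 and 41). In the other direction, 3 genes stood 6 or more places lower: Col2a1 (20, 19 and 13), Col26a1 (23, 23 and 17) and Col23a1 (18, 20 and 14). By class, fibrillar genes held 57.2% ± 0.710 under compression, 56.8% ± 0.833 in controls and 60.6% ± 2.94 at Day 0 of collagen counts. Basement membrane genes held 19.8% ± 0.647 under compression, 19.5% ± 0.832 in controls and 15.4% ± 1.56 at Day 0, cartilage genes 2.62% ± 0.333 under compression, 2.56% ± 0.166 in controls and 3.66% ± 0.155 at Day 0 and the other types 20.4% ± 0.861 under compression, 21.1% ± 1.58 in controls and 20.3% ± 1.51 at Day 0. Shares of basement membrane and cartilage genes in both Day 2 groups did not overlap those at Day 0, the first being higher and the second lower.

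Over the 2 days the type IV chains α3 to α6 and the genes Col6a6, Col8a1, Col10a1 and Col25a1 rose in both Day 2 groups. The cartilage genes Col2a1 and Col9a1 fell in both, with Col5a1, Col6a4, Col7a1, Col15a1, Col22a1, Col23a1, Col24a1 and Col26a1. These calls held in all 19 alternative settings, which are given with the processing. Col6a1, Col18a1 and Col20a1 also rose in both groups. The calls of Col6a1 and Col18a1 held in all 19 settings under compression but not in controls. Those of Col20a1 did not hold in every setting in either group. Both groups were set against the same Day 0 libraries, which asks how expression changed with and without crosslinked polymer. The results share their Day 0 samples and are given side by side. Under compression 14 of the 43 tested genes were higher and 11 lower than at Day 0. These counts stand beside 26.6% and 22.5% of all 15246 genes tested, or 49.1% in either direction. In controls 12 were higher and 12 lower, beside 22.6% and 17.7% of all genes, or 40.2% in either direction. In either direction, 58.1% of the tested collagens were called under compression and 55.8% in controls. Called changes of at least 2-fold were 4 rises and 6 falls under compression, beside 9.08% and 2.62% of all genes, and 5 rises and 4 falls in controls, beside 6.78% and 2.50%. These rises include, in both groups, Col8a1 and Col10a1, which the filter kept through their Day 2 counts. All libraries lay above Day 0 for 10 collagens and below for 10 under compression, beside 23.5% and 19.5% of all genes (43.0% in either direction), and for 8 and 10 in controls, beside 20.4% and 17.4% (37.9%). At an unadjusted p under 0.05 there were 16 higher and 11 lower under compression, beside 29.8% and 25.7% of all genes, and 13 and 12 in controls, beside 26.8% and 22.1%. Log2 fold changes were positive for 28 collagens under compression and 24 in controls, beside 51.6% and 52.3% of all genes. The median log2 fold change over the tested collagens was 0.16 under compression and 0.14 in controls, against 0.02 and 0.02 over all genes. In bulk RNA, fewer cells of a type and less RNA per cell cannot be told apart, which applies to every difference given here. A call means an adjusted p under 0.05 by edgeR's quasi-likelihood test, adjusted over all genes by the Benjamini-Hochberg method.

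**Figure D1:**
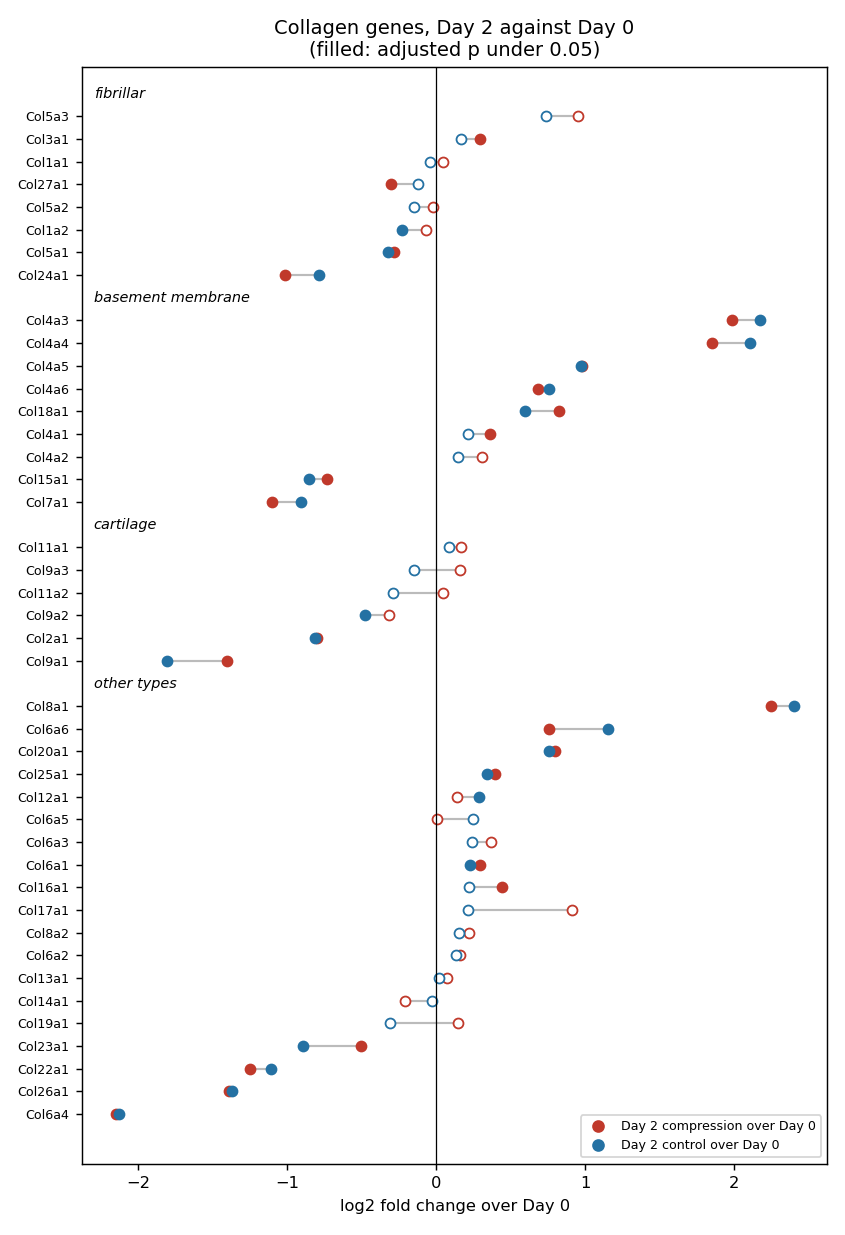
Log2 fold change over Day 0 (horizontal axis) of 42 tested collagen genes by class, for Day 2 compression (red) and Day 2 control (blue), with filled points for an adjusted p under 0.05. Col10a1 is left out because it had no count at Day 0. Col4a3, Col4a4 and Col8a1 lie furthest to the right and Col6a4 furthest to the left, and the red and blue points of these genes lie close together.

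Fibrillar genes had the smallest median size of change among the 4 classes, 0.29 on the log2 scale under compression and 0.20 in controls. Over all genes tested the median size was 0.29 under compression and 0.25 in controls, so that fibrillar genes lay near it. Under compression 1 of 8 rose (Col3a1) and 3 fell (Col5a1, Col24a1 and Col27a1), beside 26.6% and 22.5% of all genes tested. In controls none rose and 3 fell (Col1a2, Col5a1 and Col24a1), beside 22.6% and 17.7%. Set against the 49.1% and 40.2% of all genes called in either direction, these 4 and 3 of 8 genes lie near the background. Col3a1 (chr1:45311538-45349706, plus strand, GRCm38) had 3079, 3835, 3616 and 3899 CPM in the 4 compression libraries, 2816, 3031, 3758 and 3581 CPM in the 4 controls and 2851, 2802, 3243 and 2854 CPM at Day 0. The highest Day 0 library, replicate 3, lay above compression replicate 1 and above control replicates 1 and 2, so that the groups overlapped. Its log2 fold change over Day 0 was 0.30 (SE 0.10, adjusted p = 0.0270) under compression, and in controls it was not called (adjusted p = 0.211). The call of Col3a1 under compression was lost without any 1 of Day 0 replicate 1 (0.0851), Day 0 replicate 2 (0.0701), Day 0 replicate 4 (0.0724), compression replicate 2 (0.100), compression replicate 3 (0.0693) and compression replicate 4 (0.0941), where the values in brackets are the adjusted p, and with compression replicates 2 and 3 summed (0.0828).

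Of the type I chains, 1 fell in controls and neither was called under compression. Col1a1, the major chain of type I collagen (chr11:94936224-94953042, plus strand), had 1289.8, 1275, 1177 and 1677 CPM in the 4 compression libraries, 1033, 1258, 1484 and 1318 CPM in the 4 controls and 1031, 1282, 1486 and 1441 CPM at Day 0, and the groups overlapped throughout. It was called in neither comparison (adjusted p = 0.797 under compression and 0.837 in controls). The 95% interval of its log2 fold change ran from -0.25 to 0.35 under compression and from -0.34 to 0.26 in controls. Col1a2, its partner chain (chr6:4504814-4541544, plus strand), had 1142, 1286, 1232 and 1335 CPM under compression, 1037, 1013, 1176 and 1253 CPM in controls and 1222, 1281, 1422 and 1320.1 CPM at Day 0. It fell in controls by a log2 fold change of -0.23 (SE 0.08, adjusted p = 0.0395) and was not called under compression (adjusted p = 0.497). That call of Col1a2 was lost without Day 0 replicate 2 (0.0610), Day 0 replicate 3 (0.0948), Day 0 replicate 4 (0.0585), control replicate 1 (0.0955) or control replicate 2 (0.0987), the adjusted p being in brackets.

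Col5a1 and Col24a1, chains of less abundant fibrillar types, fell in both Day 2 groups. Col5a1, a chain of type V that nucleates fibrils of type I (chr2:27886425-28039514, plus strand), had 488, 478, 453 and 524 CPM in the 4 compression libraries, 430.2, 439, 511 and 511 CPM in the 4 controls and 544, 571, 602 and 645 CPM at Day 0. All Day 0 libraries lay above all Day 2 libraries. The log2 fold change was -0.28 under compression (SE 0.08, adjusted p = 0.00949) and -0.32 in controls (SE 0.08, adjusted p = 0.00536). Its partner Col5a2, with 837 ± 10.9 CPM under compression, 765 ± 75.3 CPM in controls and 848 ± 55.6 CPM at Day 0, was not called, and the ratio of Col5a1 to Col5a2 per kb was 0.458 ± 0.0271 under compression, 0.487 ± 0.00516 in controls and 0.551 ± 0.0491 at Day 0. Col24a1, a fibrillar chain described in developing bone and cornea (chr3:145292472-145552011, plus strand), had 13.7, 8.49, 9.02 and 7.09 CPM under compression, 11.9, 12.1, 9.21 and 11.7 CPM in controls and 19.9, 18.4, 19.5 and 19.6 CPM at Day 0. It was lower in each Day 2 library than in each Day 0 library, with a log2 fold change of -1.02 under compression (SE 0.16, adjusted p = 2.02e-04) and -0.79 in controls (SE 0.16, adjusted p = 0.00174). Col27a1, described in cartilage, fell under compression by a log2 fold change of -0.31 (SE 0.09, adjusted p = 0.0111) and was not called in controls (adjusted p = 0.289). It averaged 173 ± 20.7 CPM under compression, 196 ± 5.85 CPM in controls and 214 ± 23.4 CPM at Day 0. Whether its change differed between the Day 2 groups is tested by compression against control, where it was not called (adjusted p = 0.428). Col5a3 was measured with 77, 60 and 31 counts in the 4 libraries each of compression, control and Day 0 and was not called.

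**Figure D2:**
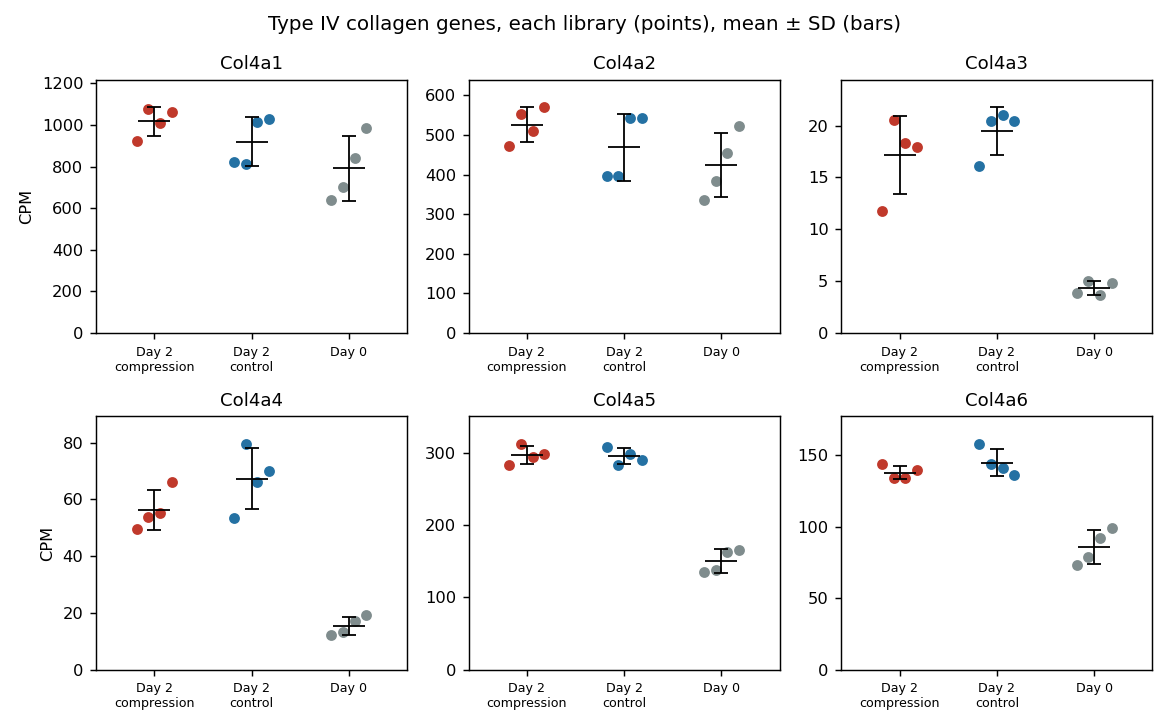
CPM of the 6 type IV collagen genes in each library (points), with the mean and SD of each group (bars), for Day 2 compression, Day 2 control and Day 0. Col4a3, Col4a4, Col4a5 and Col4a6 show no overlap between Day 0 and either Day 2 group, while Col4a1 and Col4a2 overlap across groups.

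Basement membrane genes had the largest median size of change among the 4 classes, 0.83 on the log2 scale under compression and 0.85 in controls. Over all genes tested it was 0.29 under compression and 0.25 in controls. Under compression 6 of 9 rose and 2 fell, beside 26.6% and 22.5% of all genes, and in controls 5 rose and 2 fell, beside 22.6% and 17.7%. The chains α3 and α4 of type IV, which replace α1 and α2 in the mature basement membranes of the kidney glomerulus and the alveolus, rose most. Col4a3 (chr1:82586921-82722059, plus strand) had 11.8, 20.5, 18.3 and 17.96 CPM in the 4 compression libraries, 16.1, 20.4, 21.0 and 20.5 CPM in the 4 controls and 3.85, 4.98, 3.62 and 4.85 CPM at Day 0. Each Day 2 library was above each Day 0 library, and compression replicate 1 was the lowest of the Day 2 libraries. The log2 fold change of Col4a3 was 1.99 under compression (SE 0.17, adjusted p = 1.41e-06) and 2.17 in controls (SE 0.17, adjusted p = 1.04e-06). Col4a4 (chr1:82448423-82586849, minus strand) had 49.6, 53.7, 55.2 and 66.2 CPM under compression, 53.5, 79.6, 66.1 and 69.8 CPM in controls and 12.4, 13.3, 17.1 and 19.1 CPM at Day 0. Its Day 2 libraries also lay above all Day 0 libraries, with a log2 fold change of 1.85 under compression (SE 0.15, adjusted p = 1.12e-06) and 2.11 in controls (SE 0.15, adjusted p = 6.08e-07). The ratio of Col4a3 to Col4a4 per kb was 0.361 ± 0.0757 under compression, 0.345 ± 0.0306 in controls and 0.340 ± 0.0832 at Day 0, and the libraries of the groups overlapped. Exons of Col4a3 share 5.65% of their length with C430014B12Rik on the opposite strand, and reads of the genes in this stretch cannot be told apart because the strand setting of the counts is not given.

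The chains α5 and α6, whose genes lie on the X chromosome and which form their own network in airway and smooth muscle basement membranes, rose as well. Col4a5 (chrX:141475385-141689234, plus strand) had 283, 313, 294 and 299 CPM in the 4 compression libraries, 309, 283, 298 and 291 CPM in the 4 controls and 135, 138, 163 and 166 CPM at Day 0, with a log2 fold change of 0.98 under compression (SE 0.07, adjusted p = 4.07e-07) and 0.97 in controls (SE 0.07, adjusted p = 6.08e-07). The Day 2 groups overlapped each other, and every library of both lay above every Day 0 library. Col4a6 (chrX:141165403-141474076, minus strand) had 144, 134, 134 and 139 CPM under compression, 158, 143, 141 and 136 CPM in controls and 73.0, 78.4, 92.2 and 98.8 CPM at Day 0, with a log2 fold change of 0.68 under compression (SE 0.09, adjusted p = 2.57e-05) and 0.76 in controls (SE 0.09, adjusted p = 1.74e-05). The ratio of Col4a5 to Col4a6 per kb was 2.20 ± 0.152 under compression, 2.08 ± 0.0951 in controls and 1.79 ± 0.0704 at Day 0, and no Day 2 library was as low in it as any Day 0 library.

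The chains α1 and α2 form the type IV network of most basement membranes, and 1 of them was called in 1 comparison. Col4a1 (chr8:11198423-11312826, minus strand) had 922, 1075, 1012 and 1062 CPM in the 4 compression libraries, 820.4, 813, 1012 and 1028 CPM in the 4 controls and 637, 701, 839 and 987 CPM at Day 0. The Day 0 libraries spread widely, and replicate 4 of Day 0 reached into both Day 2 groups. It rose under compression by a log2 fold change of 0.36 (SE 0.13, adjusted p = 0.0282) and was not called in controls (adjusted p = 0.192). The call of Col4a1 was lost without Day 0 replicate 1 (0.119), Day 0 replicate 2 (0.0832), Day 0 replicate 3 (0.0536), compression replicate 2 (0.0934), compression replicate 3 (0.0686) or compression replicate 4 (0.0836), given with the adjusted p, and with compression replicates 2 and 3 summed (0.0798). Col4a2 (chr8:11312805-11449287, plus strand) had 472, 552, 509 and 571 CPM under compression, 396, 396, 543 and 542 CPM in controls and 336, 384, 455 and 522 CPM at Day 0 and was called in neither comparison (adjusted p = 0.0864 under compression and 0.446 in controls). The ratio of Col4a1 to Col4a2 per kb stayed between 1.78 and 2.02 in the 12 libraries. As shares of all collagen counts, α3 with α4 made up 0.542% ± 0.0378 under compression, 0.694% ± 0.107 in controls and 0.165% ± 0.0133 at Day 0, α5 with α6 3.23% ± 0.164 under compression, 3.54% ± 0.479 in controls and 1.97% ± 0.0524 at Day 0 and α1 with α2 11.4% ± 0.276 under compression, 11.03% ± 0.590 in controls and 10.1% ± 1.06 at Day 0.

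Of the collagens tied to basement membranes without forming the type IV network, 1 rose and 2 fell. Col18a1, whose tail yields the fragment endostatin (chr10:77052178-77166548, minus strand), had 453, 648, 586 and 713 CPM in the 4 compression libraries, 352, 435, 615 and 642 CPM in the 4 controls and 249, 282, 402 and 418 CPM at Day 0. Its log2 fold change was 0.83 under compression (SE 0.22, adjusted p = 0.00742) and 0.60 in controls (SE 0.22, adjusted p = 0.0448). The call in controls was lost in 11 of the 19 alternative settings, which include the other scaling (adjusted p = 0.0510), no filter (0.0859) and the fit without Day 0 replicate 1 (0.129), Day 0 replicate 2 (0.110), control replicate 3 (0.133), control replicate 4 (0.138), compression replicate 2 (0.0648), compression replicate 3 (0.0648) or compression replicate 4 (0.0585). Col15a1, its relative in the walls of vessels and muscle (chr4:47208161-47313167, plus strand), had 18.6, 23.0, 20.8 and 30.7 CPM under compression, 16.6, 15.9, 25.9 and 28.3 CPM in controls and 30.4, 34.3, 38.9 and 51.2 CPM at Day 0. It fell by a log2 fold change of -0.74 under compression (SE 0.22, adjusted p = 0.0139) and -0.85 in controls (SE 0.22, adjusted p = 0.00819). Col7a1, which builds the anchoring fibrils below stratified epithelia (chr9:108953586-108984875, plus strand), had 4.87, 3.99, 3.31 and 2.82 CPM under compression, 4.25, 3.81, 4.52 and 4.53 CPM in controls and 7.10, 7.04, 8.34 and 9.49 CPM at Day 0, and fell in both (-1.10 under compression, adjusted p = 1.53e-04, and -0.91 in controls, adjusted p = 8.93e-04).

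Markers of the cell layers that lie on basement membranes differed from Day 0 in both directions. Of 4 endothelial markers, 4 were lower than at Day 0 in each Day 2 group, and their summed level was 54.1 to 69.9 CPM under compression, 41.5 to 77.4 CPM in controls and 222 to 369 CPM at Day 0. Of 5 epithelial markers, 4 were higher and 1 lower in each Day 2 group, with the sums and the level of Sftpc in them given above. None of these 9 markers was at 0 in any library. Of 4 mesothelial markers, 2 were higher under compression and 3 in controls and none was lower, and their summed level was 181 to 199 CPM under compression, 168 to 205 CPM in controls and 80.1 to 95.4 CPM at Day 0. The part of these cell layers in the values of the basement membrane genes was not tested.

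**Figure D3:**
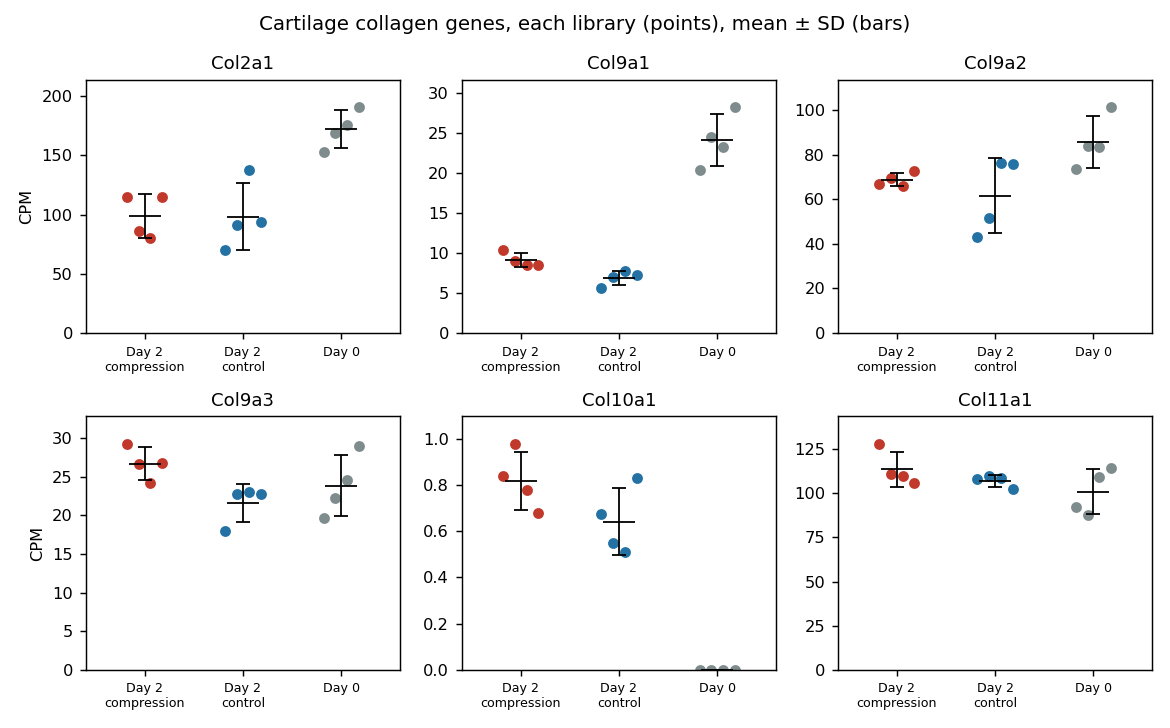
CPM of 6 cartilage collagen genes in each library (points), with the mean and SD of each group (bars), for Day 2 compression, Day 2 control and Day 0. Col2a1 and Col9a1 are lower in every Day 2 library than in every Day 0 library, and Col10a1 has no count at Day 0.

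Cartilage genes fell or were not called, with 1 exception. Under compression 2 of 7 fell (Col2a1 and Col9a1), in controls 3 fell (also Col9a2), and Col10a1 was called as higher in both. Over all genes, 26.6% were higher and 22.5% lower under compression and 22.6% higher and 17.7% lower in controls. Col2a1, the main chain of cartilage fibrils (chr15:97975602-98004695, minus strand), had 115, 86.1, 80.04 and 115 CPM in the 4 compression libraries, 70.5, 91.1, 138 and 93.5 CPM in the 4 controls and 153, 169, 176 and 191 CPM at Day 0. Every Day 0 library was above every Day 2 library. Its log2 fold change was -0.80 under compression (SE 0.18, adjusted p = 0.00258) and -0.81 in controls (SE 0.18, adjusted p = 0.00306). Col9a1, a chain of type IX that sits on the surface of type II fibrils (chr1:24177610-24252684, plus strand), had 10.4, 8.98, 8.58 and 8.51 CPM under compression, 5.69, 6.996, 7.71 and 7.21 CPM in controls and 20.4, 24.5, 23.3 and 28.3 CPM at Day 0. It fell by a log2 fold change of -1.41 under compression (SE 0.12, adjusted p = 1.41e-06) and -1.81 in controls (SE 0.12, adjusted p = 2.81e-07), the largest fall among cartilage genes.

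Of the other chains of type IX, Col9a2 fell in controls and Col9a3 was not called. Col9a2 (chr4:121039385-121055322, plus strand) had 66.8, 69.8, 66.2 and 72.7 CPM in the 4 compression libraries, 43.1, 51.4, 76.3 and 76.1 CPM in the 4 controls and 73.8, 83.7, 83.6 and 102 CPM at Day 0. Its log2 fold change in controls was -0.48 (SE 0.16, adjusted p = 0.0304), and under compression it was not called (adjusted p = 0.119). The call in controls was lost without Day 0 replicate 2 (0.0526), Day 0 replicate 4 (0.0831), control replicate 1 (0.0603) or control replicate 2 (0.0793) and in the fit of only the 8 libraries compared (0.0643). Col9a3 (chr2:180597790-180622189, plus strand) had 29.3, 26.6, 24.1 and 26.8 CPM under compression, 17.9, 22.7, 23.1 and 22.7 CPM in controls and 19.6, 22.2, 24.6 and 29.0 CPM at Day 0 and was not called (adjusted p = 0.278 under compression and 0.344 in controls). Per kb, the ratio of Col9a1 to Col9a2 was 0.101 ± 0.0123 under compression, 0.0884 ± 0.0160 in controls and 0.215 ± 0.00578 at Day 0, with no overlap between Day 2 and Day 0. The ratio of Col9a3 to Col9a2 was 0.373 ± 0.0328 under compression, 0.350 ± 0.0718 in controls and 0.267 ± 0.0138 at Day 0.

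The type XI chains Col11a1 and Col11a2, which set the width of cartilage fibrils, were called in neither comparison. Col11a1 (chr3:114030540-114220718, plus strand) had 128, 111, 109.7 and 106 CPM under compression, 108, 109.6, 109 and 102 CPM in controls and 92.2, 87.9, 109 and 114 CPM at Day 0, which overlapped between groups. Col11a2 averaged 32.95 ± 3.47 CPM under compression, 26.1 ± 4.09 CPM in controls and 31.7 ± 7.14 CPM at Day 0. Col10a1, the type X chain of enlarged chondrocytes (chr10:34389981-34397085, plus strand), had 22, 28, 23 and 21 counts under compression, 21, 16, 15 and 13 counts in controls and 0 counts in each Day 0 library. Against a floor of 3 counts over the 4 Day 0 libraries together (0.0324 CPM), its level was at least 25.3-fold higher under compression and at least 19.8-fold higher in controls, which covers counting error only. In CPM it stood at 0.818 ± 0.125 under compression and 0.641 ± 0.144 in controls. Among 6 tested cartilage genes that are no collagens, 2 were higher and 3 lower under compression and 2 were higher and 2 lower in controls than at Day 0. Their summed level with 1 untested gene was 49.5 to 58.1 CPM under compression, 42.1 to 55.1 CPM in controls and 60.2 to 85.7 CPM at Day 0. The matrilin gene Matn1 was at 0 in 3 of the 4 Day 0 libraries. Their part in the values of the cartilage collagens was not tested.

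Among type VI genes, whose chains α1, α2 and α3 form beaded filaments around cells, Col6a1 and Col6a6 rose and Col6a4 fell in both Day 2 groups, or 3 of 6 genes, beside 49.1% of all genes called under compression and 40.2% in controls. Col6a1 (chr10:76708792-76726168, minus strand) had 781, 854, 829 and 828 CPM in the 4 compression libraries, 759, 779, 819.7 and 781 CPM in the 4 controls and 583, 679, 636 and 787 CPM at Day 0, with a log2 fold change of 0.29 under compression (SE 0.08, adjusted p = 0.00852) and 0.22 in controls (SE 0.08, adjusted p = 0.0402). Its call in controls was lost in 15 of the 19 alternative settings, among them the fit without Day 0 replicate 1 (0.160), Day 0 replicate 2 (0.0695), Day 0 replicate 3 (0.145), control replicate 1 (0.0641), control replicate 2 (0.0811), control replicate 3 (0.123), control replicate 4 (0.0869), compression replicate 1 (0.0598), compression replicate 2 (0.0779), compression replicate 3 (0.0770) or compression replicate 4 (0.0691), with the adjusted p in brackets. Col6a2 (chr10:76595762-76623630, minus strand) had 697, 748, 721 and 782 CPM under compression, 673, 725, 766 and 736 CPM in controls and 545, 631, 668 and 794 CPM at Day 0 and was not called (adjusted p = 0.181 under compression and 0.279 in controls). Col6a3 (chr1:90765923-90843971, minus strand) had 279, 237, 232 and 229.8 CPM in the 4 compression libraries, 237, 208, 224 and 221 CPM in the 4 controls and 102, 115, 214 and 322 CPM at Day 0. The Day 0 libraries spread widely, all Day 2 libraries lay between their extremes, and Col6a3 was not called. Without Day 0 replicate 4, the highest, it was called in both comparisons (log2 fold change 0.75, adjusted p = 0.00944 under compression and 0.61, adjusted p = 0.0304 in controls).

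Col6a6, 1 of 3 chains that resemble α3 (chr9:105687809-105828160, minus strand), had 52.8, 55.3, 54.5 and 62.9 CPM in the 4 compression libraries, 70.7, 86.8, 68.3 and 71.4 CPM in the 4 controls and 28.9, 33.7, 40.3 and 30.6 CPM at Day 0. It rose by a log2 fold change of 0.76 under compression (SE 0.11, adjusted p = 6.76e-05) and 1.16 in controls (SE 0.11, adjusted p = 3.52e-06), and its 3 groups did not overlap. Col6a4, another of them (chr9:105989454-106096783, minus strand), had 1.22, 0.804, 0.574 and 0.777 CPM under compression, 0.901, 0.754, 0.815 and 0.957 CPM in controls and 3.16, 3.20, 3.12 and 5.39 CPM at Day 0. It fell by a log2 fold change of -2.15 under compression (SE 0.26, adjusted p = 2.06e-05) and -2.13 in controls (SE 0.26, adjusted p = 3.49e-05). The third, Col6a5, was not called and averaged 2.48 ± 0.235 CPM under compression, 2.95 ± 0.702 CPM in controls and 2.43 ± 1.08 CPM at Day 0.

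Of the 6 FACIT genes, Col20a1 rose and Col22a1 fell in both Day 2 groups, Col16a1 rose under compression and Col12a1 in controls. These 3 of 6 genes called in each comparison stand beside 49.1% of all genes under compression and 40.2% in controls. Col20a1 averaged 5.20 ± 1.09 CPM under compression, 5.03 ± 1.21 CPM in controls and 3.03 ± 1.01 CPM at Day 0, with a log2 fold change of 0.80 under compression (SE 0.24, adjusted p = 0.0136) and 0.76 in controls (SE 0.24, adjusted p = 0.0219). Both calls of Col20a1 were lost without Day 0 replicate 1 (adjusted p = 0.0518 under compression and 0.0731 in controls) or Day 0 replicate 3 (0.0530 and 0.0771), and that in controls also without control replicate 1 (0.0680) or 3 (0.0727). Col22a1, described at tissue junctions such as those of muscle and tendon, averaged 4.52 ± 0.344 CPM under compression, 5.01 ± 1.07 CPM in controls and 10.8 ± 1.503 CPM at Day 0, with a log2 fold change of -1.25 under compression (SE 0.16, adjusted p = 3.03e-05) and -1.11 in controls (SE 0.16, adjusted p = 1.15e-04). Col16a1 rose under compression by a log2 fold change of 0.45 (SE 0.10, adjusted p = 0.00177) and was not called in controls (adjusted p = 0.0835). It averaged 208 ± 13.8 CPM under compression, 178 ± 20.8 CPM in controls and 153 ± 19.0 CPM at Day 0. Col12a1, which binds type I fibrils, rose in controls by a log2 fold change of 0.29 (SE 0.09, adjusted p = 0.0244) and was not called under compression (adjusted p = 0.237). It averaged 87.5 ± 4.32 CPM under compression, 97.1 ± 9.48 CPM in controls and 79.4 ± 10.7 CPM at Day 0. Compression against control, which tests a difference between the Day 2 groups, called neither Col16a1 nor Col12a1 (adjusted p = 0.389 and 0.512 by edgeR). The call of Col12a1 was lost without Day 0 replicate 1 (0.100), Day 0 replicate 2 (0.0743), control replicate 1 (0.0926) or control replicate 4 (0.0646) and in the fit of 8 libraries (0.0586). Col14a1 and Col19a1 were not called, at 80.03 ± 9.86 CPM under compression, 90.6 ± 13.9 CPM in controls and 92.3 ± 7.08 CPM at Day 0 for Col14a1 and at 86 counts under compression, 55 in controls and 62 at Day 0 for Col19a1.

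Of the 4 transmembrane genes, Col23a1 fell, Col25a1 rose, and Col13a1 and Col17a1 were not called, again beside 49.1% and 40.2% of all genes called in either direction under compression and in controls. Col23a1 (chr11:51289920-51583918, plus strand) had 122, 117, 120.1 and 118 CPM in the 4 compression libraries, 94.6, 88.9, 93.2 and 87.3 CPM in the 4 controls and 146, 145, 177 and 206 CPM at Day 0. The 3 groups did not overlap, and the compression libraries lay between the controls and Day 0. Its log2 fold change over Day 0 was -0.50 under compression (SE 0.09, adjusted p = 5.42e-04) and -0.89 in controls (SE 0.09, adjusted p = 9.08e-06). Col25a1, which guides motor axons into muscle, averaged 135 ± 6.08 CPM under compression, 131 ± 2.72 CPM in controls and 103 ± 17.6 CPM at Day 0, with a log2 fold change of 0.39 under compression (SE 0.09, adjusted p = 0.00329) and 0.34 in controls (SE 0.09, adjusted p = 0.00961). Col13a1, a chain of cell adhesions and nerve-muscle contacts, averaged 171 ± 11.2 CPM under compression, 165 ± 5.73 CPM in controls and 162 ± 12.2 CPM at Day 0. Col17a1, which anchors basal cells in hemidesmosomes, varied widely within groups, at 3.61 to 7.09 CPM under compression, 1.44 to 6.38 CPM in controls and 1.37 to 4.13 CPM at Day 0.

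The short-chain network gene Col8a1, known from vessels and the cornea (chr16:57624258-57754737, minus strand), rose in both Day 2 groups. It had 6.65, 2.45, 2.67 and 1.81 CPM in the 4 compression libraries, 4.79, 4.70, 2.82 and 2.62 CPM in the 4 controls and 0.770, 0.569, 0.275 and 1.11 CPM at Day 0. All Day 2 libraries exceeded all Day 0 libraries, and compression replicate 1 was the highest. The log2 fold change was 2.25 under compression (SE 0.46, adjusted p = 0.00132) and 2.40 in controls (SE 0.46, adjusted p = 0.00109), and rested on 69 counts at Day 0. Without compression replicate 1 the log2 fold change under compression was 1.67 (adjusted p = 0.00221). The gene passed the filter on low counts only through its Day 2 libraries. Col8a2, its partner, was not called, at 24.8 ± 2.16 CPM under compression, 23.7 ± 5.29 CPM in controls and 21.3 ± 2.16 CPM at Day 0. Col26a1, described in testis and ovary (chr5:136741759-136883209, minus strand), had 25.9, 32.1, 29.99 and 31.5 CPM under compression, 25.5, 34.4, 27.8 and 33.2 CPM in controls and 84.8, 104, 66.4 and 58.3 CPM at Day 0. It fell by a log2 fold change of -1.39 under compression (SE 0.16, adjusted p = 1.69e-05) and -1.37 in controls (SE 0.16, adjusted p = 2.78e-05), and every Day 0 library was above every Day 2 library.

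Compressed lungs were then set against the Day 2 controls, the contrast of crosslinked with uncrosslinked polymer. None of the 43 tested collagens was called by edgeR, nor was any of the 15246 genes (0%). At an unadjusted p under 0.05, 5 collagens were higher under compression (Col9a1, Col9a3, Col11a2, Col16a1 and Col23a1) and 1 was lower (Col6a6), beside 6.73% and 5.32% of all genes. Positive log2 fold changes were found for 29 of 43 collagens, beside 51.0% of all genes, and the median was 0.07, against 0.00 over all genes. In 3 collagens the 4 compression libraries lay above all 4 controls and in 1 below, beside 3.06% and 2.70% of all genes, or 5.76% in either direction. DESeq2 called 1 collagen, Col23a1, among 71 genes. Limma-voom with quality weights called 4 of the 43 tested collagens, beside 1958 of the 15246 genes. Its share among collagens was not above that over all genes. Leaving out a library gave at most 53 called genes in edgeR (without control replicate 4), and no collagen was among the calls in any of these 12 fits.

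**Figure D4:**
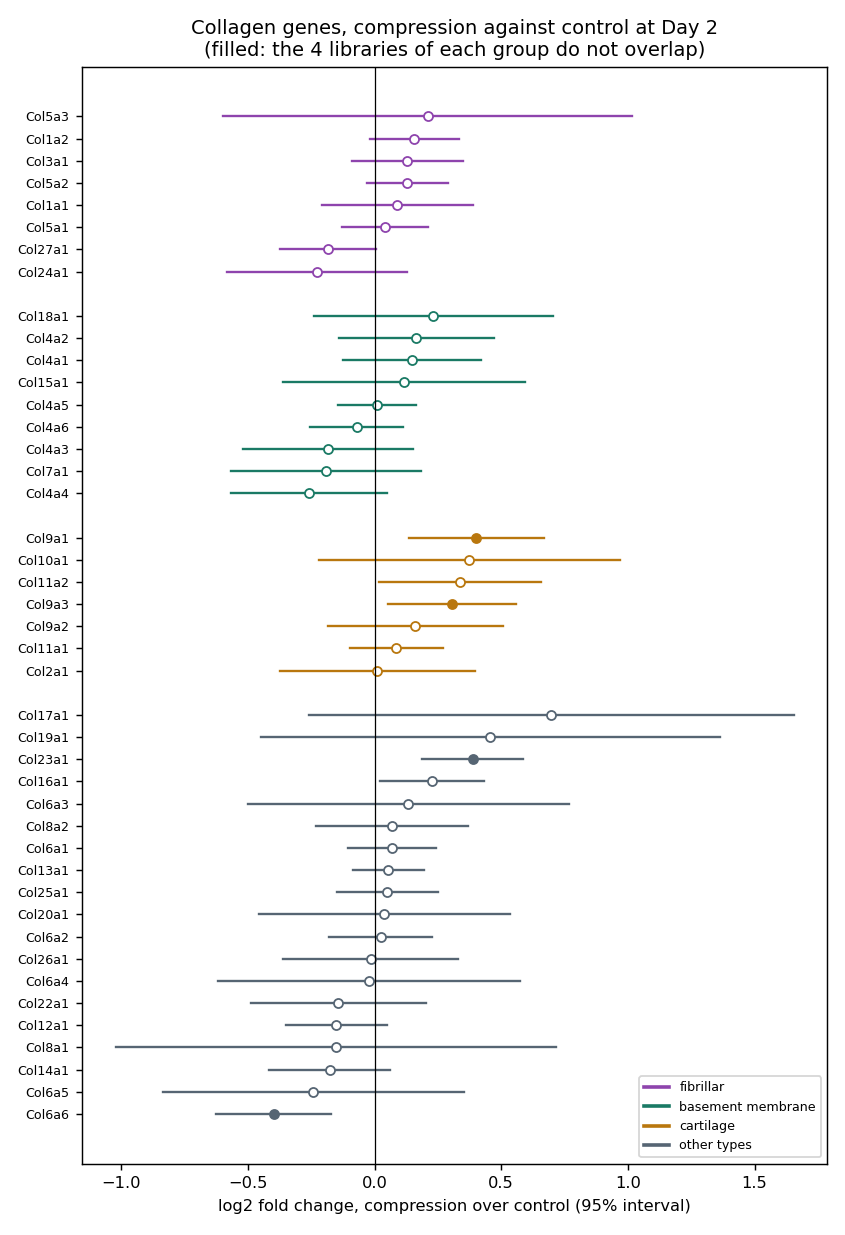
Log2 fold change of 43 collagen genes, compression over control at Day 2 (horizontal axis), with 95% intervals from edgeR, by class. Filled points mark Col9a1, Col9a3, Col23a1 and Col6a6, whose compression and control libraries do not overlap, and the 7 cartilage genes all lie right of 0.

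Col23a1 had the lowest p of the collagens. It averaged 119 ± 2.20 CPM under compression and 91.0 ± 3.46 CPM in controls. The lowest compression library stood at 116.7 CPM and the highest control at 94.6 CPM. The log2 fold change was 0.39 (SE 0.09, 95% interval 0.19 to 0.59, adjusted p = 0.255 by edgeR's quasi-likelihood test). It passed the threshold with DESeq2 (adjusted p = 0.0335), in the edgeR fit of only the 8 libraries compared (0.0473) and with limma-voom (0.00784), and its log2 fold change stayed between 0.37 and 0.41 in the 19 alternative settings. Col6a6 averaged 56.4 ± 4.48 CPM under compression and 74.3 ± 8.42 CPM in controls. The highest compression library stood at 62.9 CPM and the lowest control at 68.3 CPM, while control replicate 2, at 86.8 CPM, stood apart from the other controls. The log2 fold change was -0.40 (SE 0.11, 95% interval -0.62 to -0.17, adjusted p = 0.309), and Col6a6 passed only with limma-voom (0.0102). Both genes lay between their control and Day 0 levels under compression.

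**Figure D5:**
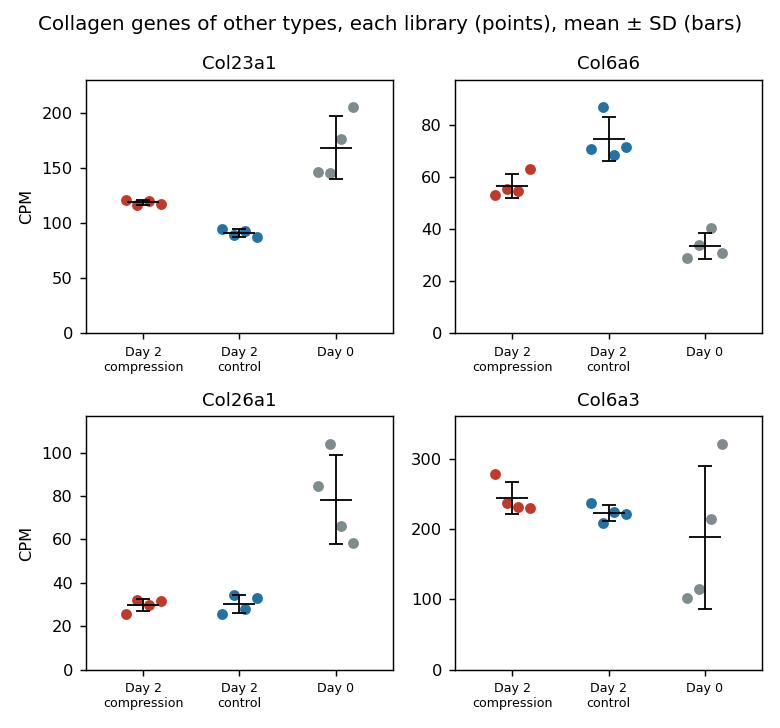
CPM of Col23a1, Col6a6, Col26a1 and Col6a3 in each library (points), with the mean and SD of each group (bars), for Day 2 compression, Day 2 control and Day 0. In Col23a1 and Col6a6 the compression libraries lie between the controls and Day 0 without overlap, in Col26a1 both Day 2 groups lie below Day 0, and in Col6a3 the Day 0 libraries spread from 102 to 322 CPM.

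All 7 cartilage collagens had positive log2 fold changes under compression, beside 51.0% of all genes, with a median of 0.31. Col27a1, described in cartilage but placed here with the fibrillar genes, went the other way (-0.18, not called by edgeR). Col9a1 averaged 9.11 ± 0.869 CPM under compression and 6.90 ± 0.860 CPM in controls, the lowest compression library at 8.51 and the highest control at 7.71 CPM, with a log2 fold change of 0.40 (SE 0.12, 95% interval 0.13 to 0.67, adjusted p = 0.326). Col9a3 averaged 26.7 ± 2.11 CPM under compression and 21.6 ± 2.47 CPM in controls, without overlap, at a log2 fold change of 0.31 (SE 0.12, 95% interval 0.06 to 0.56, adjusted p = 0.377). Its exons share 6.07% of their length with Tcfl5 on the opposite strand, where reads of both genes cannot be told apart. Col11a2 averaged 32.95 ± 3.47 CPM under compression and 26.1 ± 4.09 CPM in controls (log2 fold change 0.34, 95% interval 0.02 to 0.66, adjusted p = 0.401), and its compression replicate 3, at 29.6 CPM, lay below control replicate 4, at 29.8 CPM. Col10a1 had 94 counts under compression and 65 in controls. The others stood at 0.16 (Col9a2), 0.09 (Col11a1) and 0.01 (Col2a1), at adjusted p = 0.677, 0.678 and 0.982 in the same order. Col2a1 turned sign without control replicate 1 (-0.12), 2 (-0.02) or 4 (-0.0042), without compression replicate 1 or 4 (both -0.07) and with limma-voom (-0.31). The summed level of the 7 non-collagen cartilage genes was 49.5 to 58.1 CPM under compression and 42.1 to 55.1 CPM in controls, with 3 of 6 tested genes positive and none called, and its part in these values was not tested.

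Intervals are given for the most abundant genes of each class. In the fibrillar class, the log2 fold change of compression over control was 0.13 for Col3a1 (95% interval -0.09 to 0.35), 0.16 for Col1a2 (-0.02 to 0.33) and 0.09 for Col1a1 (-0.21 to 0.39). The sign of Col1a1 turned without compression replicate 4 (-0.03) and with limma-voom (-0.08). In the basement membrane class they were 0.15 for Col4a1 (-0.12 to 0.42), 0.16 for Col4a2 (-0.14 to 0.47) and 0.23 for Col18a1 (-0.24 to 0.70). Among type VI genes they were 0.07 for Col6a1 (-0.11 to 0.24), 0.02 for Col6a2 (-0.18 to 0.23), which turned sign in 3 settings, and 0.13 for Col6a3 (-0.50 to 0.77). Col16a1 averaged 208 ± 13.8 CPM under compression and 178 ± 20.8 CPM in controls (log2 fold change 0.23, 95% interval 0.02 to 0.43, adjusted p = 0.389), with overlapping libraries. The type IV genes that rose most over the culture were not called here: 95% intervals were -0.52 to 0.15 for Col4a3, -0.56 to 0.05 for Col4a4, -0.14 to 0.16 for Col4a5 and -0.25 to 0.11 for Col4a6. Limma-voom with quality weights called Col4a4 (adjusted p = 0.0311) and Col27a1 (0.0165) as lower. A p above the threshold does not show that the groups are alike, and these intervals give the range of differences that the libraries allow.

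Genes that make, bind, organise and break down collagen were counted from 4 lists. Of 25 tested genes of collagen biosynthesis (modifying enzymes, chaperones and processing enzymes), 12 rose and 7 fell under compression relative to Day 0, beside 26.6% and 22.5% of all genes. In controls 10 rose and 5 fell, beside 22.6% and 17.7%, and none was called between compression and control. Of the 19 alternative settings, calls under compression were lost in 9 for Colgalt1, 7 for Pcolce, 6 each for Crtap and Tll1 and 2 each for P4hb and Plod2. Those in controls were lost in 12 for Serpinh1, 10 each for P4hb and Pcolce2 and 5 for P3h4. The other calls of this list held in all 19. P4ha3, a subunit of prolyl 4-hydroxylase, rose (36.9 ± 0.738 against 20.3 ± 2.26 CPM for compression and Day 0, log2 fold change 0.86, adjusted p = 5.28e-06). In controls it stood at 38.3 ± 3.82 CPM (0.92, adjusted p = 4.76e-06). Adamts3, a protease that trims procollagen ends, fell (23.9 ± 1.89 against 35.0 ± 1.51 CPM for compression and Day 0, -0.55, adjusted p = 1.64e-04), as it did in controls (-0.47, adjusted p = 7.76e-04). Bmp1, which removes the other end, fell as well (231 ± 32.3 against 372 ± 33.3 CPM for compression and Day 0, -0.69, adjusted p = 5.93e-05). Adamts2, of the same list, went the other way (log2 fold change 0.51, adjusted p = 0.00134 under compression and 0.49, adjusted p = 0.00234 in controls).

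Of 6 tested proteoglycans that coat fibrils, 5 rose under compression and 4 in controls, beside 26.6% and 22.6% of all genes, and none fell, beside 22.5% and 17.7%. The call of Prelp under compression was lost in 3 of the 19 alternative settings. Ogn had 83.3 ± 22.7 against 12.9 ± 1.75 CPM for compression and Day 0 (log2 fold change 2.68, adjusted p = 1.27e-06) and 2.39 in controls (adjusted p = 4.05e-06). Fmod rose by 0.88 under compression and 1.03 in controls (adjusted p = 1.42e-06 and 5.71e-07). Of 9 tested collagen receptors, 1 rose and 5 fell under compression, beside 26.6% and 22.5% of all genes, and 1 rose and 1 fell in controls, beside 22.6% and 17.7%. The fall of Itga10 under compression was lost in 2 of the 19 alternative settings. Exons of Itga10 share 33.5% of their length with Gm42957 on the same strand, where reads of both genes cannot be told apart. The 2 of 9 called in controls are below the 40.2% called over all genes. The leukocyte receptor Lair1 rose (2.28, adjusted p = 1.09e-04 under compression and 1.81, adjusted p = 0.00102 in controls). It stood at 0.275 to 0.342 CPM at Day 0, below the filter's cutoff of 0.347 CPM, and was kept through its Day 2 counts. A rise was thereby favoured for Lair1. The integrin gene Itga2 fell (-2.10, adjusted p = 5.51e-04 and -2.19, adjusted p = 6.05e-04). Its Day 0 replicate 4 stood at 16.4 CPM, against 5.05 to 6.65 CPM in the other Day 0 libraries. Over the 19 alternative settings its log2 fold change stayed between -2.28 and -1.55 under compression and between -2.39 and -1.64 in controls. The summed level of 4 leukocyte markers was 129.6 to 156 CPM under compression, 89.1 to 143 CPM in controls and 74.2 to 87.9 CPM at Day 0, and its part in the value of Lair1 was not tested. Of 5 tested collagen-degrading enzymes, 1 rose (Mmp9) and 1 fell (Mmp14) under compression, beside 26.6% and 22.5% of all genes, and 2 fell in controls (Mmp14 and Mmp2), beside 17.7%. Mmp9, a gelatinase, had 22.0, 2.41, 1.76 and 2.59 CPM in the 4 compression libraries, 0.643, 1.92, 1.53 and 1.53 CPM in the 4 controls and 0.599, 0.711, 0.367 and 0.419 CPM at Day 0. Compression replicate 1 stood far above the other libraries, and the log2 fold change under compression was 3.81 (adjusted p = 0.00302) with it and 2.12 (adjusted p = 3.69e-04) without it. The call of Mmp14 under compression was lost without Day 0 replicate 3 (adjusted p = 0.0519) or 4 (0.0737), without compression replicate 2 (0.0511) and in the fit of 8 libraries (0.0570). That of Mmp2 in controls was lost without Day 0 replicate 2 (0.0746) or control replicate 1 (0.0595). Between compression and control no tested gene of these lists was called by edgeR. Unadjusted p-values under 0.05 were found for 2 of 25 biosynthesis genes, 2 of 9 receptors, 1 of 6 proteoglycans and 1 of 5 degrading enzymes, beside 6.73% of all genes higher and 5.32% lower at that threshold.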

How the data were processed

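RNA of 12 lung explants was sequenced in bulk, 4 libraries in each of 3 groups, after isolation with an RNeasy Micro kit and library preparation with a KAPA mRNA HyperPrep kit, per the labels' protocols. The authors deposited raw counts per gene symbol in 1 table of 24421 rows, of which 4505 had no count. The submitters' processing notes name fastp, STAR and mm10. For their versions, the counting tool, the annotation and the strand setting, nothing is given in the sources used here. Columns were matched to samples by the description in the labels, and 0 columns were left unmatched.

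Genes were kept with filterByExpr of edgeR (minimum count 10, minimum total 15), which left 15246, and were tested in R 4.3.3 with edgeR 4.0.16: TMM scaling, 1 robust quasi-likelihood fit of the 12 libraries and Benjamini-Hochberg adjustment over all 15246 genes, with a threshold of 0.05. The script was tested on simulated data first. The alternatives were RLE scaling, no filter, leaving out each library, a block of replicate numbers, DESeq2 1.42.0, a fit of only the 8 libraries compared, limma 3.58.1 (voom with quality weights) and the sum of compression replicates 2 and 3.

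The collagen genes, their classes and all lists were chosen with earlier results of these data known. Values in every library were given for the 3 genes of each class with the highest mean CPM, for the 2 largest rises and the 2 largest falls past the threshold per class at a mean of at least 1 CPM, and for the 4 lowest p-values between compression and control. Those of Col4a5, Col4a6 and Col10a1 were added after their values were seen. Coordinates and principal transcript lengths are from GENCODE M21 on GRCm38, and sequences are from RefSeq on GRCm38.p6. Intervals are at 95%, and the floor of 3 counts covers counting error only, since the reads carry no stated molecular identifiers.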

Additional observations from a re-analysis of the deposited data

Results flagged for a closer look

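In 7 of the 129 sets of 4 libraries (43 genes in 3 groups), 1 library stood apart from the other 3 by Dixon's criterion at 95%. Chance flags about 1 set in 20. Col6a3 was highest in compression replicate 1, at 279 CPM against 229.8 to 237 CPM in the other compression libraries. Col4a3 was lowest in control replicate 1, at 16.1 CPM against 20.4 to 21.0 CPM in the other controls, and so was Col9a3, at 17.9 CPM against 22.7 to 23.1 CPM. Col6a6 was highest in control replicate 2, at 86.8 CPM against 68.3 to 71.4 CPM. Col24a1 was lowest in control replicate 3, at 9.21 CPM against 11.7 to 12.1 CPM. Col3a1 was highest in Day 0 replicate 3, at 3243 CPM against 2802 to 2854 CPM in the other Day 0 libraries. Col6a4 was highest in Day 0 replicate 4, at 5.39 CPM against 3.12 to 3.20 CPM.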

How the results depend on the processing

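Between compression and control, where edgeR called 0 collagens and 0 genes, DESeq2 called 1 collagen and 71 genes, the fit of only the 8 libraries compared 1 and 4, and limma-voom with quality weights 4 and 1958. Leaving out each library gave 0 collagens and 0 to 53 genes (53 without control replicate 4, 19 without compression replicate 1). The cause of these differences was not tested. Of all 43 tested collagens, 13 turned sign between compression and control in at least 1 alternative. Of the fold changes given, those of 3 genes turned sign: Col1a1 (-0.085 with limma-voom, -0.030 to 0.18 with each library left out), Col2a1 (-0.31, and -0.12 to 0.23) and Col6a2 (-0.00225, and -0.00763 to 0.0571). Against Day 0, leaving out each library gave 22 to 28 called collagens for compression and 19 to 26 for controls. No called collagen turned sign, and 22 of the 25 called under compression and 18 of the 24 called in controls were called in all 19 alternatives. Correlations of same-numbered libraries ran from -0.18 to 0.17. They were positive for replicate 1 in all 3 pairs of groups (0.108 to 0.166) and for all 4 numbers between control and Day 0 (0.0487 to 0.112), but not all were above 0.1 in any pair of groups, so the replicate numbers were not taken to pair samples. With the replicate block, 0 collagens were called between compression and control, 28 between compression and Day 0 and 24 between control and Day 0. Depth limits Col5a3, Col8a1, Col10a1 and Col19a1, with 31, 69, 0 and 62 counts over the Day 0 libraries.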
